A study of Homo sapiens with 6 samples.

Results

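The genes described here are TAGLN3, its relatives TAGLN and TAGLN2, the calponin genes CNN1, CNN2 and CNN3, and the smooth muscle actin gene ACTA2, which make 7 of the 61541 genes listed in the count files. They were found by matching Ensembl gene identifiers to these symbols, and all 7 were found and passed the filter on low counts. TAGLN3 had been picked because it had the smallest p of all genes that were lower in cytokine-treated cells, and the other 6 because they belong to the same protein families or mark the same muscle programme. The comparison of treated with untreated cells is therefore the one that chose TAGLN3, and its values for the 7 genes are given as a description without a test. RNA came from RCC4, an established human line of clear cell renal carcinoma origin that is known to lack functional VHL, so every group carries that defect. The untreated group held 3 biological replicates kept in complete DMEM, and the treated group held 3 replicates exposed to interferon gamma (IFNγ) at 1000 U/mL and tumour necrosis factor (TNF) at 25 ng/mL for 24 h. Each replicate was made from 3 flasks, and native poly(A) RNA was read by direct RNA nanopore sequencing. Results speak for this single line and for both cytokines together, as no library had either alone.

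Transgelins are small proteins with a single calponin homology domain that bind and bundle actin filaments. TAGLN, also called SM22 alpha, is an early marker of smooth muscle, TAGLN2 is made in many cell types, and TAGLN3, also known as neuronal protein 25, is best known from the brain. Calponins carry the same domain followed by short actin-binding repeats: CNN1 is the smooth muscle form that slows the actomyosin ATPase, whereas CNN2 and CNN3 are also made in non-muscle cells. Several of these genes are textbook targets of serum response factor (SRF), which binds a sequence called the CArG box with its myocardin-family partners.

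The sequences shown are the promoter windows of the 2 members with the lowest relative level after treatment, TAGLN3 and CNN1, and of CNN2, whose window was the only one among the members to match the strict CArG consensus. They run 5′ to 3′ on the gene's strand, from 250 bases before to 50 bases after a RefSeq start site on GRCh38.p14. Windows were given for 6 of the 7 members, 11 windows in all, and not for TAGLN. Capitals mark the strict CArG match.
TAGLN3 first start (chr3:111998672-111998971, plus strand): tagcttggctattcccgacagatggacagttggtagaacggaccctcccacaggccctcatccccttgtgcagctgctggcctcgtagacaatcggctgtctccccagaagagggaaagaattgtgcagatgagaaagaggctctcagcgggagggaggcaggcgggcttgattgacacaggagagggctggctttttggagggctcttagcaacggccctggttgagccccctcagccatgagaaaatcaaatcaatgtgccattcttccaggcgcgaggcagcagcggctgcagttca
TAGLN3 second start (chr3:111999083-111999382, plus strand): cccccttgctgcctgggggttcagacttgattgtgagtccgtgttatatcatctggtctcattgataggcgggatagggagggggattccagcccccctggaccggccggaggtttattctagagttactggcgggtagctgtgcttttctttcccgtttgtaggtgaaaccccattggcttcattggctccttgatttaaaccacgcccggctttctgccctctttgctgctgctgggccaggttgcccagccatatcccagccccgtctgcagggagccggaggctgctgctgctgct
CNN1 (chr19:11538601-11538900, plus strand): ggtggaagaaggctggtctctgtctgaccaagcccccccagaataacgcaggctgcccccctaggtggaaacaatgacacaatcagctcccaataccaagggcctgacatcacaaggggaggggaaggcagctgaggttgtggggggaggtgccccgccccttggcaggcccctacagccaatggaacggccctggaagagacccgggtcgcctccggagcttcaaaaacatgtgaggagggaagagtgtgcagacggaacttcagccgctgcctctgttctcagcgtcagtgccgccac
CNN2 (chr19:1026358-1026657, plus strand): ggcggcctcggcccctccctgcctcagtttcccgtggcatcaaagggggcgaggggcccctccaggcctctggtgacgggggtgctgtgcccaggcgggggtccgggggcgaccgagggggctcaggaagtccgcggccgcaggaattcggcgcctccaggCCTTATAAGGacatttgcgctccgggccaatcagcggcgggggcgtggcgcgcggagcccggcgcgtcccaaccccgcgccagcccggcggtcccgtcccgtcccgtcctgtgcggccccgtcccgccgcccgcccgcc

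Searched on both strands, the strict CArG box, with A or T at each of its middle bases, was present once among the 11 windows, from base -89 to base -80 of CNN2, and in 1.29% of 35116 windows of all genes. With 1 mismatch allowed in the middle, the second window of ACTA2 matched as well, at CCCTATATGG from base -121 to base -112 and at CCTTGTTTGG from base -71 to base -62, and 8.13% of all windows did. No other member window matched. The letters TTCNNNGAA were found once, in the second window of ACTA2, and are held by 7.66% of all windows. A pair of GAAA runs with 2 bases between them, as in interferon response elements, matched once, in the first window of ACTA2, against 3.57% of all windows. TATAAA was in none of the 11 windows, against 11.5% of all, and neither TAGLN3 window held any of these or the letters GGGCGG, which 45.0% of all windows hold. The third window of TAGLN2 and the second window of CNN3 held none of them either. These matches describe letters in a short window and say nothing of binding.

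Library totals ran from 3626000 to 4406296 counts. A gene listed at 0 could have been expected to hold at most 3 counts, which amounted to 0.681 to 0.827 CPM on library totals alone. CPM are counts scaled to a common library size, and for the gene values below after TMM, a scaling that assumes most genes do not change. Untreated replicate 3 stood apart from the other 2 untreated libraries on the second principal component, with a score of -49.5 against 35.3 and 7.30, and its values are singled out where they matter. Treated replicate 1 also stood apart from its group there, at 34.0 against -17.9 and -9.22. As a check of the labels, the cytokine response genes IRF1, GBP1, TAP1, ICAM1, CXCL10, SOD2 and NFKBIA were all called higher in treated cells by edgeR, IRF1 by 5.29 and ICAM1 by 5.43 on the log2 scale. The renal carcinoma markers PAX8, CA9, VIM and KRT18 all passed the filter.

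TAGLN3 (ENSG00000144834; GRCh38 chromosome 3, 111998739 to 112013887, plus strand) was nearly lost from treated cells. Untreated replicates 1, 2 and 3 held 76, 94 and 84 reads, or 19.8, 24.2 and 19.0 CPM. Treated replicates held 2, 4 and 2 reads, or 0.575, 0.898 and 0.568 CPM. The groups were far apart, and the treated libraries lay about the level of 3 counts. On average TAGLN3 went from 21.0 ± 2.79 to 0.681 ± 0.189 CPM (SD, n = 3 each), which is -4.86 (SE 0.35) as a log2 fold change. This SE depends on the fit, from 0.34 with library totals alone to 0.62 in the DESeq2 Wald test. Summed over libraries, 254 reads in untreated cells stood against 8 in treated cells, so the treated level was 3.34% of the untreated one. The exact 95% interval of 1.43% to 6.68% covers counting error alone. It is wider than the SE of 0.35 implies, so that SE understates the uncertainty. No other gene shares exon bases with TAGLN3 on its strand, so none of its reads had to be dropped as ambiguous. Untreated replicate 3 was near the others for this gene. In RNA from whole cultures, fewer cells with TAGLN3 and less TAGLN3 in each cell cannot be told apart.

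**Figure D1:**
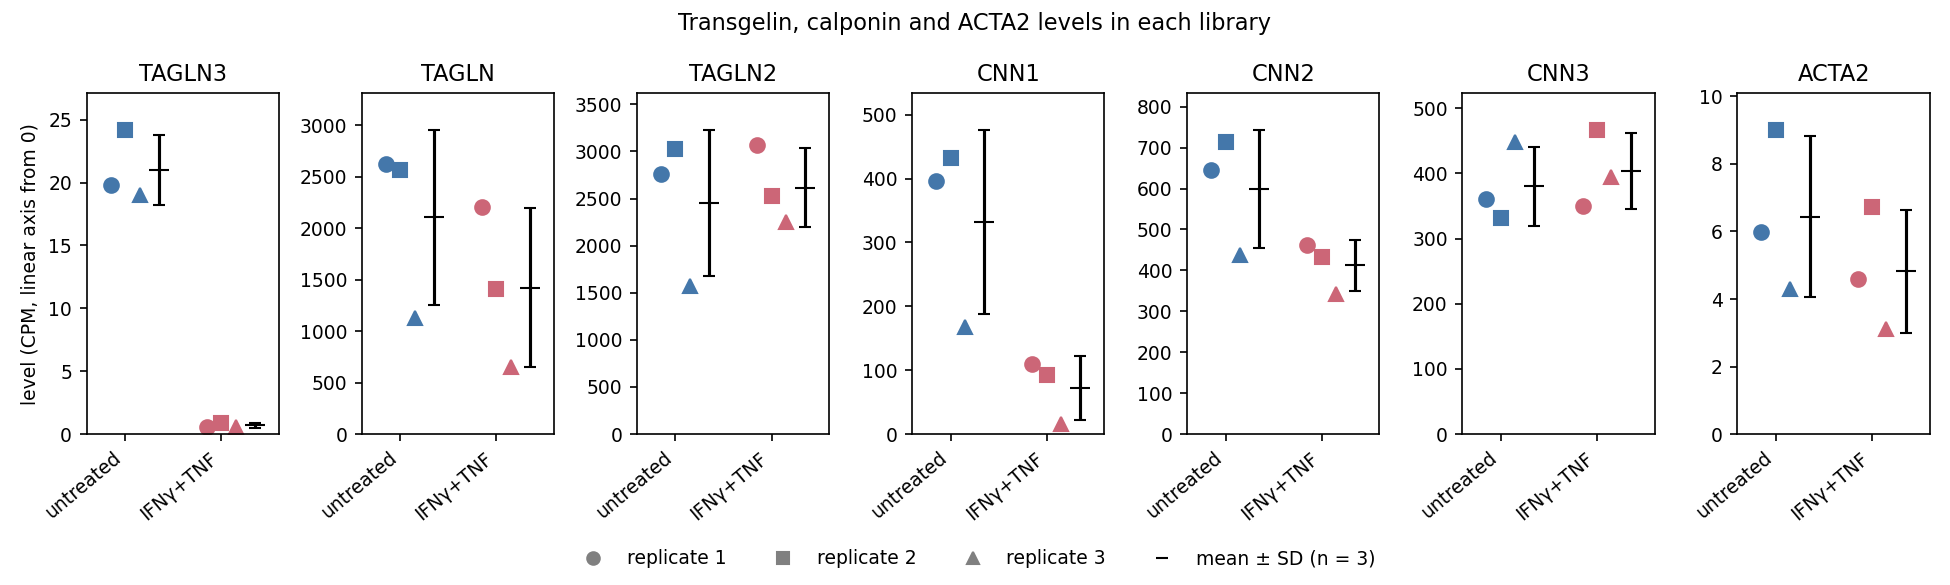
Level of each of the 7 genes in CPM (vertical axes, linear from 0, a separate scale for each gene) in the 3 untreated (blue) and 3 treated (red) libraries, with circles, squares and triangles for replicates 1, 2 and 3 and black bars for mean ± SD. TAGLN3 and CNN1 are the genes whose groups do not overlap, and replicate 3 lies lowest in both groups for every gene but CNN3, for TAGLN3 by a margin that rests on the scaling.

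TAGLN (ENSG00000149591; chromosome 11, 117199370 to 117207464, plus strand) was far more abundant than TAGLN3 in reads and did not separate the groups. It stood at 2624, 2568 and 1128 CPM in untreated replicates 1, 2 and 3. Treated replicates 1, 2 and 3 had 2208, 1408 and 656 CPM. Untreated replicate 3 lay below 2 of the treated libraries, and treated replicate 3 was the lowest of all. The means were 2107 ± 848 and 1424 ± 776 CPM (SD, n = 3 each). The log2 fold change was -0.57 (SE 0.44), and it was -0.88 without untreated replicate 3, -0.22 without treated replicate 3 and -1.03 without treated replicate 1. A single annotated exon carries TAGLN to 117207464, past the last end of its other exons at 117204782, and there it shares 2498 of its 6550 exonic bases with ENSG00000280143 on the same strand. That gene held 1 count in all 6 libraries, against 41283 for TAGLN. Reads that fit both genes are dropped as ambiguous, so these counts cannot show how many TAGLN lost from its level or family share.

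TAGLN2 (ENSG00000158710; chromosome 1, 159918107 to 159925507, minus strand), the broadly expressed member, was level. Its untreated libraries held 2763, 3024 and 1567 CPM. The treated ones held 3073, 2527 and 2251 CPM. All 3 treated values lay above untreated replicate 3, and the top value of the 6 was a treated one. The log2 fold change was 0.09 (SE 0.25) between means of 2451 ± 777 and 2617 ± 418 CPM (SD, n = 3 each), and it took the opposite sign, -0.15, without untreated replicate 3.

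Within the transgelin family the counts can be compared without any scaling between libraries. TAGLN3 made up 0.499% ± 0.177 of family counts in untreated and 0.0178% ± 0.00616 in treated cells (SD, n = 3 each), with no overlap. TAGLN had 45.3% ± 3.51 and 33.4% ± 9.85, with groups that overlapped narrowly, at 41.6% in untreated replicate 3 and 41.8% in treated replicate 1. TAGLN2 had 54.2% ± 3.34 and 66.6% ± 9.84, and its groups were separate, from 51.1% to 57.7% untreated and from 58.2% to 77.4% treated. The family as a whole stood at 4579 ± 1619 CPM without and 4041 ± 1190 CPM with cytokines, a difference well inside the spread of replicates.

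CNN1 (ENSG00000130176; chromosome 19, 11538767 to 11550323, plus strand), the smooth muscle calponin, was the other member with separate groups. Untreated replicates 1, 2 and 3 had 397, 433 and 168 CPM, from 1521, 1682 and 741 reads. In treated replicates there were 109, 92.1 and 15.6 CPM, from 380, 410 and 55 reads. Every treated library was below every untreated one, but both libraries numbered 3 lay far under their partners, at 0.404 and 0.155 of the mean of replicates 1 and 2 of their group. The means were 332 ± 144 and 72.3 ± 49.9 CPM (SD, n = 3 each), and the log2 fold change was -2.20 (SE 0.61). It was -2.53 without untreated replicate 3, -1.72 without treated replicate 3 and -2.04 without both.

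CNN2 (ENSG00000064666; chromosome 19, 1026586 to 1039068, plus strand) leaned the same way by less. Its untreated values were 644, 715 and 437 CPM. Treated values were 462, 433 and 342 CPM. The groups overlapped through untreated replicate 3 alone, which lay between treated replicates 1 and 2. The means were 598 ± 145 and 412 ± 62.8 CPM (SD, n = 3 each). The log2 fold change was -0.54 (SE 0.22), and it was -0.73 without untreated replicate 3.

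CNN3 (ENSG00000117519; chromosome 1, 94896949 to 94927223, minus strand), the acidic calponin, did not follow its relatives. It had 361, 332 and 449 CPM in untreated replicates. In treated replicates it had 351, 467 and 394 CPM. The groups were interleaved, and here untreated replicate 3 was the highest of its group. The log2 fold change of 0.08 (SE 0.19) joined means of 380.5 ± 60.8 and 404 ± 58.6 CPM (SD, n = 3 each).

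Within the calponin family the groups differed in the share of CNN1, which is given as a description without a test. CNN1 held 24.5% ± 7.44 of calponin counts in untreated and 7.74% ± 5.07 in treated cells (SD, n = 3 each), with every treated library below every untreated one. CNN2 kept a similar share, 45.2% ± 3.47 and 46.4% ± 3.33. CNN3 had 30.3% ± 10.8 and 45.8% ± 7.28, with overlapping groups. In total the calponins stood at 1311 ± 227 CPM untreated and 889 ± 124 CPM treated, and the lowest untreated library (1053 CPM) lay above the highest treated one (992 CPM).

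**Figure D2:**
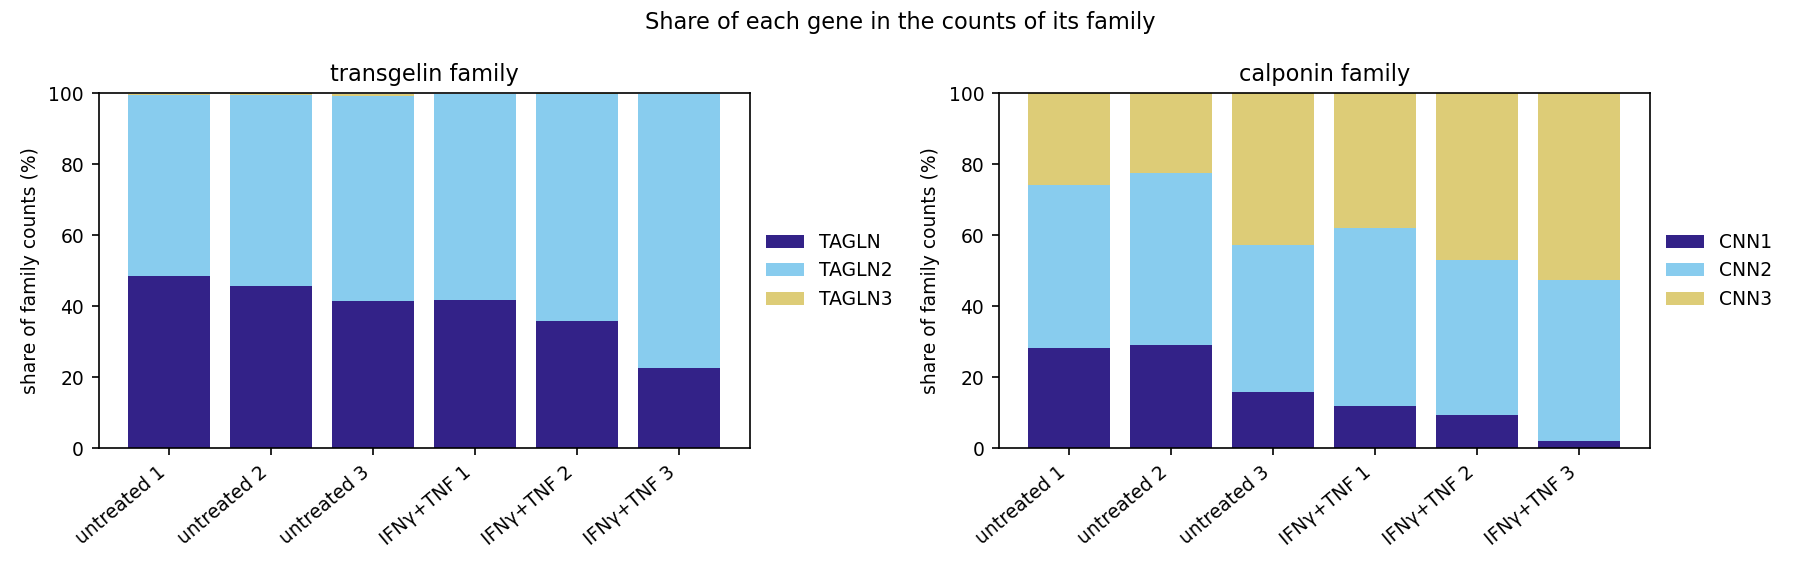
Share of each gene in the summed counts of the transgelin family (left) and the calponin family (right), in percent, with 1 bar per library. The CNN1 segment is smaller in all 3 treated libraries than in any untreated one, and the TAGLN3 segment, a thin band at the top of the untreated bars, is too small to see in the treated bars.

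ACTA2 (ENSG00000107796; chromosome 10, 88935074 to 88991339, minus strand), which encodes the actin of smooth muscle and myofibroblasts, was scarce in both groups. Reads numbered 23, 35 and 19 in untreated and 16, 30 and 11 in treated replicates, or 5.996, 9.01 and 4.30 CPM and 4.60, 6.74 and 3.12 CPM. The ranges overlapped over most of their length. The log2 fold change was -0.40 (SE 0.42), between means of 6.43 ± 2.39 and 4.82 ± 1.82 CPM (SD, n = 3 each), and it ran from -0.68 to -0.08 when single libraries were left out. On its strand ACTA2 shares 401 exonic bases with ENSG00000286116, which held at most 3 counts in any library. FAS and STAMBPL1 run across ACTA2 on the opposite strand, and the counting was strand-specific.

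Levels of different genes were compared as CPM per kilobase of exonic length. In untreated cells the order was TAGLN2 (1084 ± 343), TAGLN (322 ± 129), CNN2 (164 ± 39.7), CNN3 (137 ± 21.8), CNN1 (117 ± 50.7), TAGLN3 (12.2 ± 1.63) and ACTA2 (2.16 ± 0.802; SD, n = 3 each). TAGLN, CNN2, CNN3 and CNN1 overlapped with their neighbours in this order, whereas TAGLN2, TAGLN3 and ACTA2 stood clear of theirs. In treated cells it was TAGLN2 (1157 ± 185), TAGLN (217 ± 118), CNN3 (145 ± 21.1), CNN2 (113 ± 17.3), CNN1 (25.5 ± 17.6), ACTA2 (1.62 ± 0.610) and TAGLN3 (0.397 ± 0.110). TAGLN3 thus passed from above ACTA2 to below it with no overlap on either side. Division by length bears on some of this order: in CPM alone the untreated values of TAGLN2 and TAGLN overlapped, and in treated cells CNN2 had the higher mean CPM than CNN3. The exonic length of TAGLN includes its long last exon, so its level per kilobase is low for the shorter transcripts. Nanopore reads of whole RNA molecules need not scale with length.

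Of the 7 members, 1 was called lower (TAGLN3) and 0 higher in the fit over all 10067 genes tested with edgeR's quasi-likelihood test, where 2.55% of all genes were called lower, 5.58% higher and 8.14% in either direction. For 2 members, TAGLN3 and CNN1, all treated libraries lay below all untreated ones, as they did for 11.9% of all genes, while groups were separate in either direction for 25.9%. The median log2 fold change was -0.54 over the 7 and -0.03 over all genes tested. Since TAGLN3 was chosen on this comparison, nothing is read from these counts. Without untreated replicate 3 the members called lower were 3, TAGLN3, CNN1 and CNN2. Calls rose over all genes too in that fit, with 445 of 10239 called lower, against 257 of 10067 in the reported fit.

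**Figure D3:**
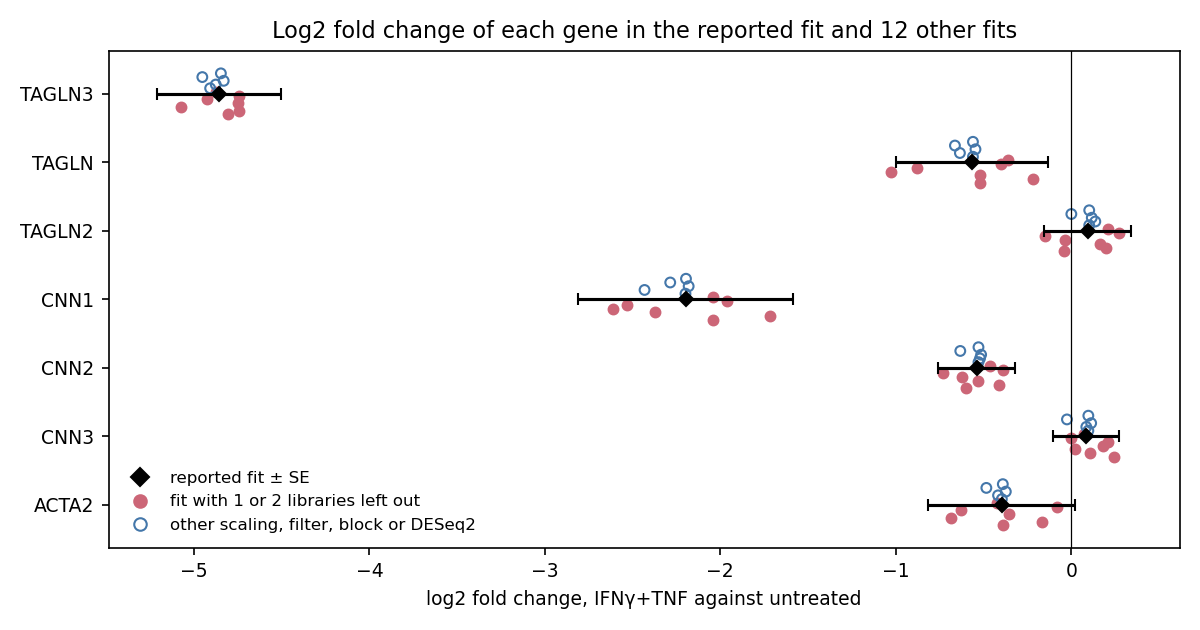
Log2 fold change of treated against untreated cells (horizontal axis) for the 7 genes, with the reported fit as a black diamond ± SE and 12 other fits as circles, filled where libraries were left out. TAGLN3 stays between -5.07 and -4.74 and CNN1 between -2.61 and -1.72, while TAGLN2 and CNN3 lie on both sides of 0.

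Replicate 3 was low in most members. In 6 of the 7 genes the lowest untreated library was replicate 3 and the lowest treated library was replicate 3 as well, which holds for 20.6% of all genes tested. CNN3 was the exception. TAGLN3 counts among the 6 only narrowly, since treated replicates 1 and 3 both held 2 reads. Scaled by library totals alone, it was 5 of the 7, without TAGLN3, against 18.4% of all genes. TAGLN in untreated replicate 3 was 0.434 of the mean of replicates 1 and 2, and in treated replicate 3 it was 0.363. TAGLN3 itself varied least of the 7 among untreated libraries, with a highest value 1.27 times the lowest, against 2.58 times for CNN1. What set the libraries numbered 3 apart was not tested.

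Related genes were taken from 5 lists on smooth muscle, actin filaments, actin crosslinking, SRF and TGF-beta regulation, and neurons. Of the 17 other smooth muscle genes 8 were tested, and 2 were called lower and 0 higher (median log2 fold change -0.58). TPM1, which encodes an alpha tropomyosin that lies along actin filaments, stood at 1561 ± 162 CPM untreated and 907 ± 132 CPM treated (SD, n = 3 each; log2 fold change -0.79, SE 0.17, edgeR adjusted p 0.0223). SYNM, which encodes the intermediate filament protein synemin, stood at 8.13 ± 2.04 and 2.65 ± 0.855 CPM (log2 fold change -1.60, SE 0.39, edgeR adjusted p 0.0364). Both calls were fragile: with single libraries left out, TPM1 passed in 1 of 6 fits (highest edgeR adjusted p 0.116) and SYNM in 0 of 6 (highest 0.146). MYL9, the regulatory myosin light chain of smooth muscle and many other cells, and CSRP1 were the most abundant of the rest and were not called. Their log2 fold changes were -0.42 (SE 0.20) and 0.41 (SE 0.24). Of the 9 genes under the filter, PLN and PPP1R14A had 0 counts, and MYH11, ACTG2, LMOD1, SYNPO2 and KCNMB1 had at most 3 counts in every library. TPM2 had 4 to 7 counts. DES, which encodes the muscle intermediate filament protein desmin, had 0, 0 and 2 counts untreated and 6, 6 and 13 treated, so its groups were separate in the opposite direction to TPM1 and SYNM. It was called higher when the filter was lifted (edgeR adjusted p 0.0019), at a level near the limit of detection. In that fit 4 genes of the list were called lower and 1, DES, higher, against 479 lower and 849 higher of 19158 genes.

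Among 18 tested actin isoforms and filament proteins, 1 was called higher and 0 lower (median log2 fold change 0.19). The gene was GSN, which encodes the filament-severing protein gelsolin, with 14.3 ± 4.88 CPM untreated and 39.0 ± 5.54 CPM treated (SD, n = 3 each; log2 fold change 1.44, SE 0.28, edgeR adjusted p 0.0123). It was not called without untreated replicate 2 or without treated replicate 3 (highest edgeR adjusted p 0.0653). The cytoplasmic actins ACTB and ACTG1, the main actins of these cells, were not called, and ACTB stood at 13628 ± 2999 and 12776 ± 2142 CPM (log2 fold change -0.09, SE 0.20). TMSB10, a thymosin that binds actin monomers, had a log2 fold change of 0.40 (SE 0.14) and was not called. ACTA1 and ACTC1, the skeletal and cardiac actins, had 0 counts.

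Of 25 tested crosslinkers and stress fibre genes 0 were called by edgeR (5 had an unadjusted p under 0.05, and DESeq2 called 2), with a median log2 fold change of -0.04. FLNA, the abundant filamin, and MYH9, a non-muscle myosin heavy chain, had log2 fold changes of -0.20 (SE 0.18) and -0.10 (SE 0.18). Of 18 tested SRF and TGF-beta regulators edgeR again called 0 (6 with an unadjusted p under 0.05, and 3 called by DESeq2), with a median of -0.20. TGFBI and CCN1, both secreted matrix proteins, were the most abundant there. Their log2 fold changes were 0.08 (SE 0.18) and -0.40 (SE 0.28). MYOCD, the smooth muscle coactivator of SRF, had 0 counts in all 6 libraries.

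The neuronal list was included because TAGLN3 is best known from neurons. Only 3 of its 22 genes were tested, and 14 had 0 counts in all libraries, among them STMN2, GAP43, DCX, TUBB3 and UCHL1. DPYSL3, which encodes a collapsin response mediator protein of growth cones, was called lower, at 156 ± 5.34 CPM untreated and 74.2 ± 4.34 CPM treated (SD, n = 3 each; log2 fold change -1.08, SE 0.16, edgeR adjusted p 0.00341). It stayed called in all 12 other fits, where the highest adjusted p was 0.0295. STMN3, a microtubule regulator of the stathmin family, was called higher, at 94.8 ± 27.8 and 209.7 ± 24.1 CPM (log2 fold change 1.14, SE 0.24, edgeR adjusted p 0.0189). It lost its call in 3 of the 6 fits with 1 library left out (highest edgeR adjusted p 0.0873). ENO2, neuron-specific enolase, had a log2 fold change of -0.31 (SE 0.24) and was not called.

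**Figure D4:**
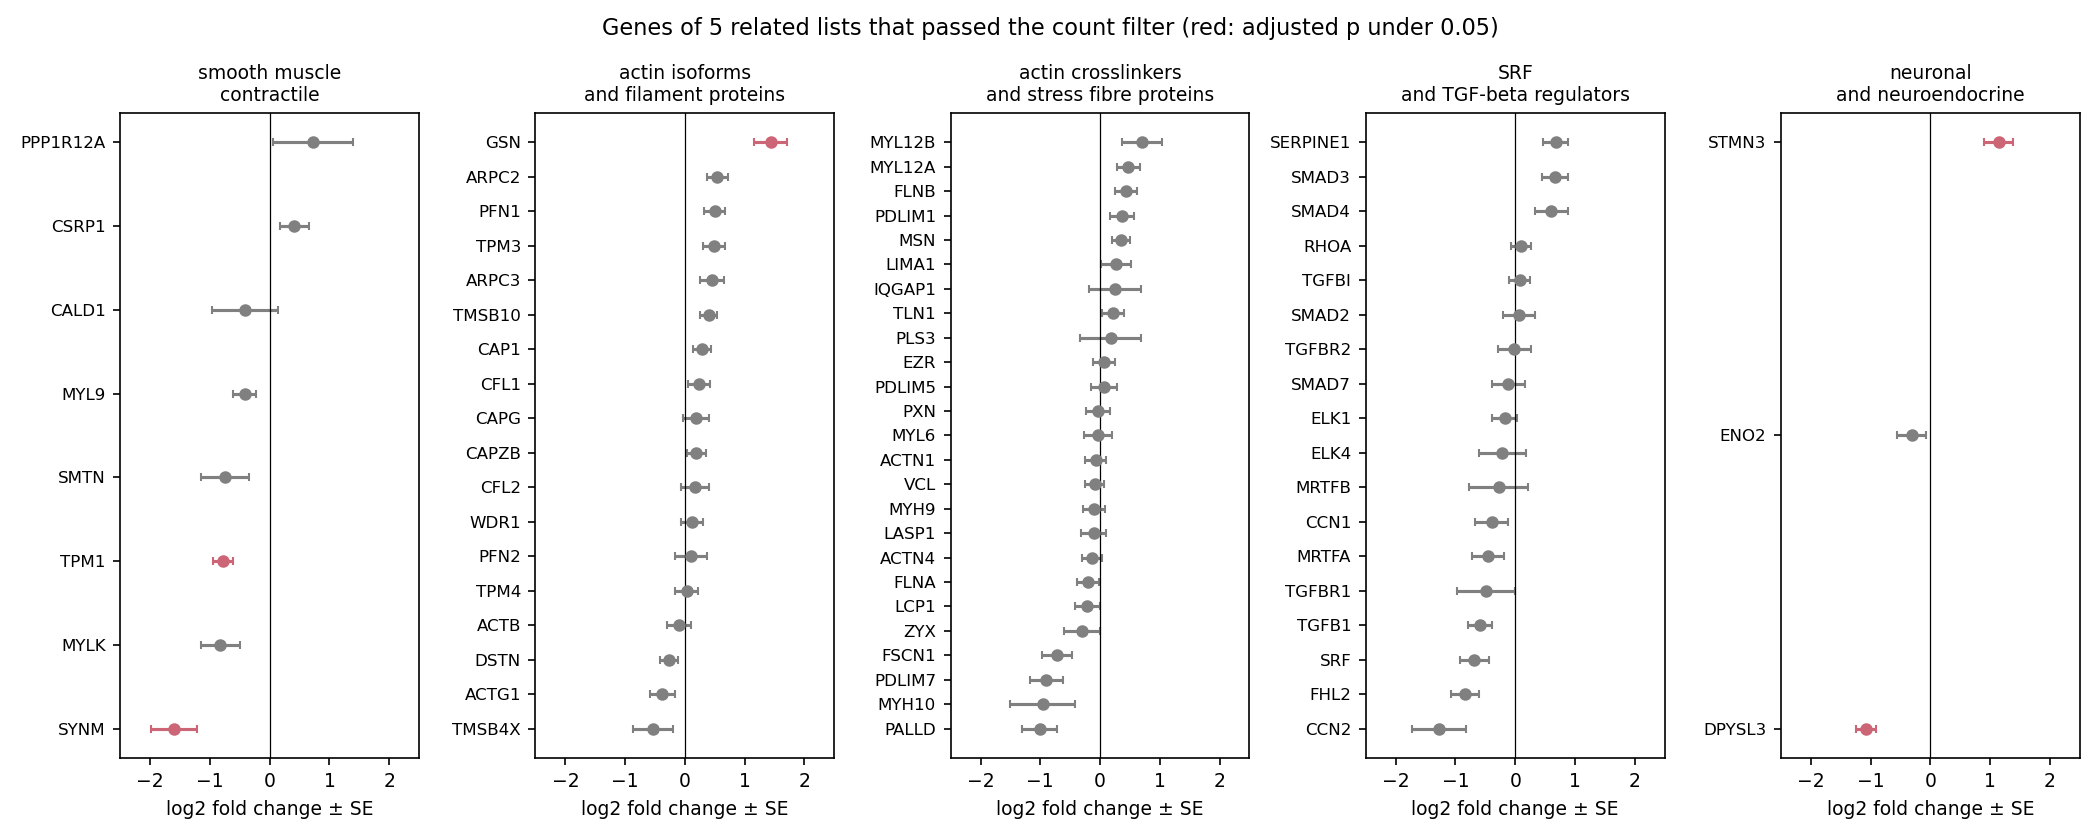
Log2 fold change ± SE (horizontal axes) of the tested genes of the 5 lists, in panels, with red points for genes at an edgeR adjusted p under 0.05 and grey points for the others. The 5 red points are SYNM, TPM1 and DPYSL3 below 0 and GSN and STMN3 above 0.

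Markers of other cells that express these genes were looked at too. Of 14 stromal, endothelial and blood markers 11 had 0 counts in all 6 libraries, including PECAM1, PTPRC, DCN and COL3A1, and the summed level of the list ran from 54.6 to 74.2 CPM in untreated and from 27.5 to 49.2 CPM in treated libraries. COL1A1, a fibrillar collagen, made up most of this, at 55.5 ± 9.90 and 36.1 ± 11.0 CPM (SD, n = 3 each), and was not called. PDGFRB, the platelet-derived growth factor receptor of pericytes and fibroblasts, was called lower, at 10.3 ± 0.848 and 2.71 ± 0.126 CPM (log2 fold change -1.91, SE 0.31, edgeR adjusted p 0.0049). It stayed so with any single library left out. Among renal carcinoma markers, KRT19 and PAX8 were called lower and VIM higher, with log2 fold changes of -1.08, -0.79 and 0.66. With single libraries left out these calls passed in 3, 1 and 2 of 6 fits (highest edgeR adjusted p 0.0690, 0.153 and 0.126). The part of these in the values of TAGLN3 and CNN1 was not tested.

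The surroundings of TAGLN3 on chromosome 3 were examined within 250 kb on either side, where 12 other genes are listed. Of these 3 were tested, and edgeR called 0, with 0 at an unadjusted p under 0.05 and 0 called by DESeq2. ABHD10, a mitochondrial depalmitoylase gene that ends 5371 bases before TAGLN3 on the same strand, had 14.6, 22.4 and 25.3 CPM untreated and 10.4, 14.8 and 15.1 CPM treated. Its log2 fold change was -0.63 (edgeR adjusted p 0.264). PHLDB2 stood at 0.25 (edgeR adjusted p 0.88) and C3orf52 at -0.22 (0.766), both as log2 fold changes. In 6 of the other 9 there were 0 counts in all libraries.

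Genes with the profile most like that of TAGLN3 were found by the root mean square difference of log2 CPM, centred on each gene's mean, over the 6 libraries and 10066 other genes. The nearest were LUARIS (a difference of 0.37), S1PR1 (0.48), SLC17A3 (0.54), ZBED2 (0.55) and ENSG00000286805 (0.60). LUARIS, a non-coding RNA gene, had 44, 53 and 72 reads untreated and 2, 5 and 1 treated. S1PR1, a receptor for sphingosine 1-phosphate, had 67, 69 and 68 reads and 5, 6 and 4, and SLC17A3, a kidney urate and phosphate transporter, had 62, 71 and 127 and 3, 4 and 0. ZBED2, a zinc finger gene, had 41, 53 and 92 reads untreated and 3, 1 and 0 treated, and lies 403 kb from TAGLN3 on the opposite strand of chromosome 3, outside the window above. These genes were picked for their likeness, so their difference is not a separate result. Of the other members CNN1 came nearest, at 1.25 and place 78, followed by CNN2 at 1.84 and place 1112, and TAGLN2 was the farthest, at 2.18 and place 6217.

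**Figure D5:**
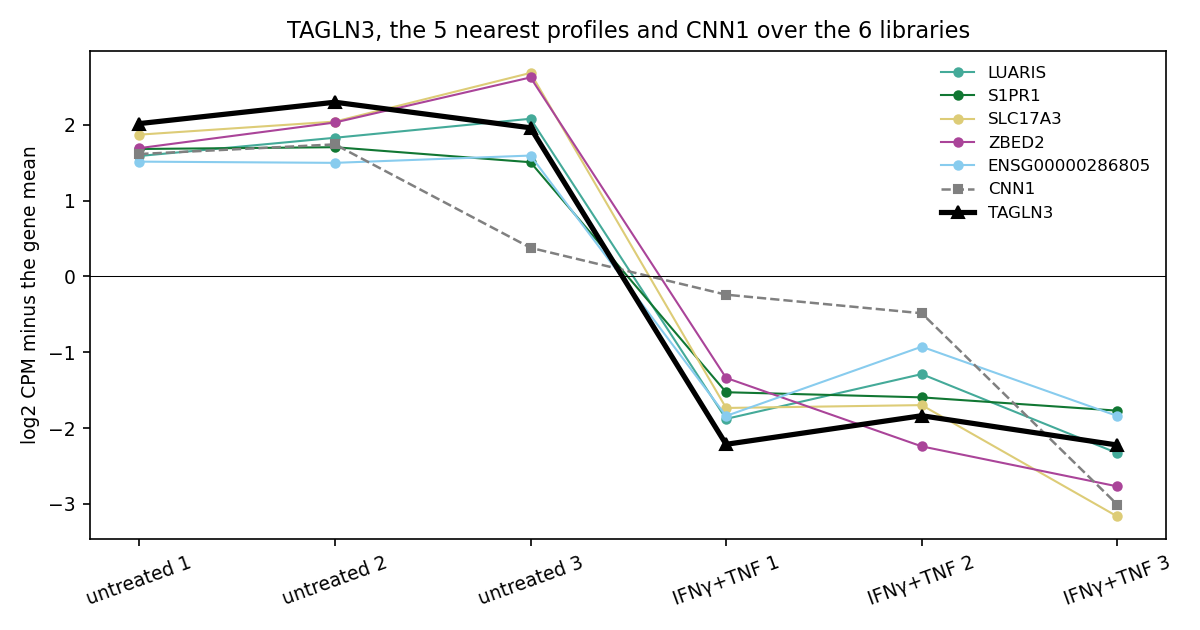
Log2 CPM minus the gene's own mean (vertical axis) in the 6 libraries for TAGLN3 (black), its 5 nearest genes and CNN1 (grey, dashed). TAGLN3 and its 5 nearest genes lie above 0 in all untreated and below 0 in all treated libraries, and CNN1 lies near 0 in untreated replicate 3 and in treated replicates 1 and 2.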

How the data were processed

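Read counts per gene were deposited for 6 libraries. Per the file headers, the authors made them with featureCounts 2.0.1 in long-read, strand-specific mode over exons of Ensembl release 105 on GRCh38; the submitters' processing notes name minimap2 2.24, SAMtools 1.16 and featureCounts 2.0.0. Alignment names in the headers carry the word dmso, and groups were taken from the sample titles. Gene symbols came from a name table that held 61369 of 61541 identifiers.

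Counts were fitted here over all genes with edgeR 4.0.16 in R 4.3.3 (quasi-likelihood F test, TMM, filterByExpr, Benjamini-Hochberg adjustment, threshold 0.05, group as the sole term). SE is the absolute log2 fold change over the square root of F. On simulated data over 9825 genes with the sizes of this comparison, edgeR called 80 of 100 genes changed by a log2 fold change of 2 and 26 of 100 changed by 1, with 5 false calls, so smaller changes are often missed. The first criterion for this check, over 80 of 100 recovered, was not met and was replaced afterwards by criteria on fitted size, sign and false calls. DESeq2 1.42.0 and other settings were alternatives. The members and lists were chosen with earlier results of these data known. Named list genes are up to 4 called genes per list with the smallest adjusted p, up to 2 uncalled ones with the highest mean CPM, and defining markers at 0 counts; ACTG1, DES, TPM2 and the genes of at most 3 counts were named after their values were seen. Some genes of the marker and check lists are not reported here. The CArG search with a mismatch and the tally of lowest libraries by library totals were also chosen after seeing the data. Neighbours lay within 250 kb of TAGLN3, and the 5 nearest profiles used log2 CPM with a prior count of 2.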

Additional observations from a re-analysis of the deposited data

How the results depend on the processing

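TAGLN3 kept its direction and its call in all 12 alternatives, which refit the comparison it was chosen on and so give no separate support. The count of members called was 1 in the reported fit, 2 with no filter beyond 1 count per gene (TAGLN3 and CNN1), and 1 to 3 with single libraries left out. It was 2 without both libraries numbered 3 (TAGLN3 and CNN1), an alternative chosen after seeing the data. With the replicate number as a block it was 4 (TAGLN3, CNN1, TAGLN and CNN2). Same-numbered libraries deviated together in 2 of 3 pairs, with correlations of 0.651, -0.0037 and 0.374 across genes. Differently numbered ones could do so too, as untreated replicate 3 and treated replicate 2 did at 0.413. The labels give no shared origin, so the numbers were not taken as pairs.

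TAGLN2 changed sign without untreated replicate 3 (-0.15), without treated replicate 1 (-0.034) and without both libraries numbered 3 (-0.044), and ran from -0.15 to 0.27 with single libraries left out. CNN3 did so with library totals alone (-0.024), which moved the median over all genes from -0.03 to -0.13 and the calls from 562 higher and 257 lower to 485 and 364, and without untreated replicate 2 (-0.0038), with a range of -0.0038 to 0.21 over single libraries left out. Calls over the 5 related lists numbered 5, against 15 without the filter, 22 with the replicate block, 10 in DESeq2, 11 without both libraries numbered 3, and 1 to 12 with single libraries left out. Over all genes the 819 calls became 1328 without the filter and 1513 with the block, and ran from 455 (without treated replicate 3) to 1178 (without untreated replicate 3), with 465 without untreated replicate 2. The cause was not tested. Depth limits TAGLN3 in treated cells and ACTA2 in both groups.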
